A study of Mus musculus with 4 samples.

Results

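The 10 genes described here are the Notch receptors Notch1, Notch2 and Notch3, the ligands Dll1, Dll4, Jag1 and Jag2, the DNA-binding partner Rbpj and the transcription factors Hes1 and Hes6. They were taken as every probe set whose array annotation names exactly 1 gene, that gene being one of these 10 symbols. This gave 20 probe sets of the 34958 that name 1 gene, and 10 genes of 18194. Expression was measured in colon epithelium on 4 arrays, which the labels number as biological replicates without saying how many mice went into each. All animals carried floxed Stat3 alleles (Stat3flfl), in which loxP sites let Cre recombinase remove part of the gene, and all had been given dextran sodium sulphate (DSS), which injures the colon epithelium, at 2.5% in drinking water for 5 days. The 2 Cre-positive arrays came from animals that also carried VillinCre, a recombinase driven by the promoter of villin, a gene of intestinal epithelial cells, and the 2 Cre-negative arrays from animals without it. No mouse without DSS and none with VillinCre but unfloxed Stat3 was analysed here, and the age of the animals is not given in the sources used here.

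Notch signalling passes between touching cells. A ligand of the Delta (Dll) or Jagged (Jag) family on one cell binds a Notch receptor on its neighbour, the receptor is cut by an ADAM protease and then by gamma-secretase, and its freed intracellular part enters the nucleus, joins RBPJ and turns on genes such as Hes1. In the intestinal crypt HES1 represses Atoh1, the gene of the transcription factor that commits cells to secretory fates such as goblet cells, so that cells receiving a Notch signal become absorptive and Atoh1-expressing cells, which display Dll1 and Dll4, become secretory. HES6 is a related protein that is known in other tissues to oppose HES1. The question put to the arrays was whether any of these genes differed between Stat3-floxed epithelium with and without the recombinase.

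The sequences below show where the letters read by the 2 DNA-binding proteins of the pathway stand near the starts of 3 genes described below. These are Rbpj, the member that is itself the DNA-binding partner, Nrarp, the listed Notch target with the largest difference, and Atoh1, which HES1 represses. Each is the RefSeq window (GRCm38.p6) of 250 bases before to 50 bases after the gene's start, written 5′ to 3′ along the gene. Capitals mark TGGGAA, the RBPJ core, in the Rbpj window and CACNAG, the N box bound by HES proteins, in the other two, each on either strand.
Rbpj, chr5:53590096-53590395, + strand: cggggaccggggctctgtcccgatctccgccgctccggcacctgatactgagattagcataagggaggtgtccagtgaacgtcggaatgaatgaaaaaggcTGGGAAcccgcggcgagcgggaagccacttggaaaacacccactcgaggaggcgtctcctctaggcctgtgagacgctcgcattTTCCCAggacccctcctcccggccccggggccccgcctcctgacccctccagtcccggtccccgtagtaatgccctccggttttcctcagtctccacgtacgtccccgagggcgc
Nrarp, chr2:25180508-25180807, + strand: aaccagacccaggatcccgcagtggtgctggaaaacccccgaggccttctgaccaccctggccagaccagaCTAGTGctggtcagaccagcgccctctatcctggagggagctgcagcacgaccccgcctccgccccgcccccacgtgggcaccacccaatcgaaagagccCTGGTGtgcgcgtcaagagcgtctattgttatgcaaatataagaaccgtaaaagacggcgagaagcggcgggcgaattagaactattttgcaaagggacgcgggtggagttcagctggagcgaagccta
Atoh1, chr6:64728875-64729174, + strand: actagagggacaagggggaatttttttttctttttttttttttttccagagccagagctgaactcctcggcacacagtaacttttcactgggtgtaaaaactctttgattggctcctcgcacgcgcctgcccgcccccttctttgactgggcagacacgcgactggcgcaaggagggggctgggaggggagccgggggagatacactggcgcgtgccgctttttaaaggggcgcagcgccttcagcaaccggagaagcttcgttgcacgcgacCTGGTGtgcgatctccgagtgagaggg
The Rbpj window, 1 of its 2, held the RBPJ core at 149 and at 65 bases before the start, the second on the opposite strand. The Nrarp window held N boxes at 179 and 79 bases before the start, and the Atoh1 window held 1 at base 24 after it. Neither the Nrarp nor the Atoh1 window held the RBPJ core. The capitals overlapped no match of the other motifs searched. Windows were given for 9 of the 10 members, all but Hes1. These 9 had 12 windows. TGGGAA was present in 2 of the 12, both of Rbpj, against 25.6% of all 32851 windows. These 2 windows overlap and share a match, so they stand for 1 member. CACNAG was present in 6 of the 12, 1 for each of 6 members, against 42.5%, and TTCNNNGAA, the letters STAT proteins read, in 1, of Notch3, against 8.3%. The motifs and the windows printed were chosen after values and matches were seen. A match of letters is a description and shows no binding.

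The epithelium label fitted its markers. All 13 epithelial markers were detected, with Epcam between log2 14.67 and 14.94 in the 4 arrays, while 13 of 15 endothelial markers, Pecam1, Cdh5 and Kdr among them, were at the foot of the scale, and Egfl7 of that list was dim. Of 13 mural and smooth muscle markers 8 were at or below the filter, Acta2 and Tagln among them, and Myh11 and Rgs5 were barely above it, while Mylk lay between log2 9.47 and 10.72 and Pdgfrb between 5.82 and 7.69. Krt20, a surface epithelial keratin, measured 14.06 and 13.46 in the Cre-positive arrays, against 13.48 and 13.32 in the Cre-negative arrays. Its groups overlapped and the difference was 0.36. Leukocyte markers were present and their summed intensity was 1553 and 1562 in the Cre-positive arrays, against 869 and 1061 in the Cre-negative arrays, with Ptprc, the pan-leukocyte marker CD45, at log2 8.31 and 8.24 against 7.19 and 7.40, and Cd4 dim with a lower mean (difference -0.13). The neutrophil list summed to 1571 and 89.3 in the 2 Cre-positive arrays, the first being array 1, against 137 and 83.9 in the Cre-negative arrays, a sum carried by S100a8 (log2 9.70 and 5.06 against 5.91 and 4.79) and S100a9. Of the same list Csf3r and Lcn2 were dim and differed by 0.04 and -0.10, and Cxcr2 and Mmp8 were below the filter. The array least like the rest over all genes was Cre-positive array 1 (correlations 0.981 to 0.987, against 0.992 to 0.994 among the others). By its brightest probe set Stat3 itself measured log2 9.28 and 8.16 in the Cre-positive arrays, against 10.46 and 10.50 in the Cre-negative arrays, a difference of -1.75 (SE 0.43, limma adjusted p = 0.332). A second Stat3 probe set differed by -1.57, while a dimmer one went the other way (6.82 and 6.11 against 5.60 and 4.75), and which of them lie in the deleted part is not known. In bulk tissue, fewer cells of a type and less RNA per cell cannot be told apart.

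None of the 10 Notch genes passed the test between epithelium with and without the recombinase. The differences of the 9 that could be tested ran from -0.24 for Hes6 to 0.33 for Jag1, and the intervals below show what sizes these arrays leave possible. Values are GC-RMA intensities on the log2 scale, where a difference of 1 is 2-fold, and each difference is Cre-positive minus Cre-negative. Of the 10 genes, 9 had a brightest probe set above the filter at the 40th percentile of probe-set means (log2 2.81), and Notch3 did not. Limma called 0 of these 9 at an adjusted p under 0.05 and 0 at an unadjusted p under 0.05. Over all 12660 genes it called 0% after adjustment (smallest adjusted p 0.244) and 11.1% unadjusted, 322 higher and 1077 lower. Among the 9 genes 6 had a higher and 3 a lower mean in the Cre-positive arrays, with a median difference of 0.09 and a median absolute difference of 0.11, beside -0.05 and 0.16 over all genes tested. The groups did not overlap for 2 of the 9, against 48.3% of all genes. With 2 arrays a group the precision is limited by their number, and an exact permutation test could not give a two-sided p below 0.333. The p-values measure only the spread between these arrays.

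**Figure D1:**
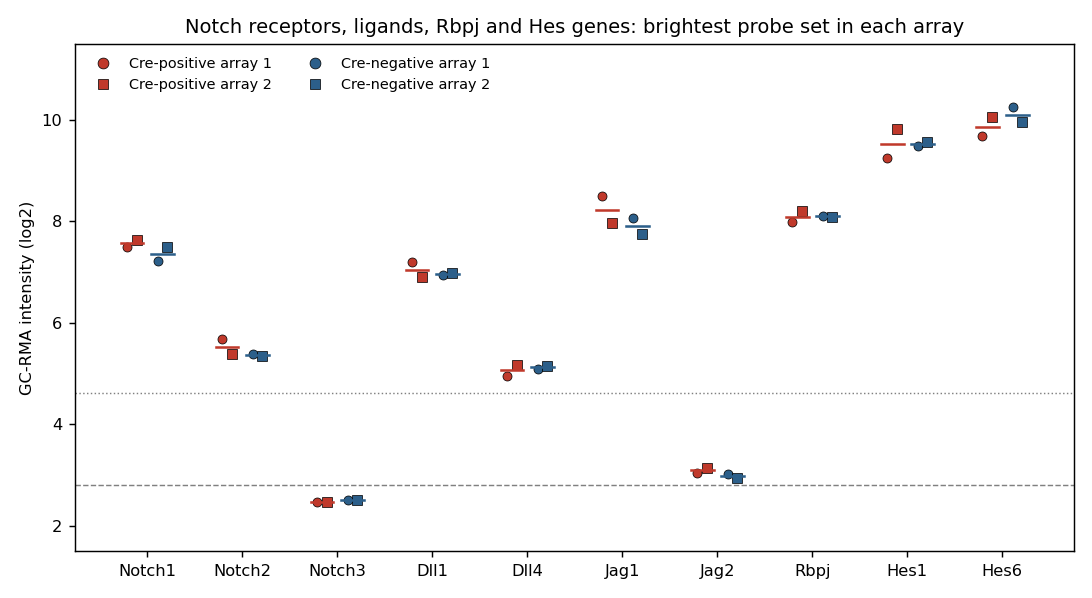
GC-RMA intensity (log2) of the brightest probe set of each Notch gene in each array, Cre-positive on the left of each pair and Cre-negative on the right. Bars are group means (n = 2). The dashed line is the filter at log2 2.81 and the dotted line the 60th percentile of probe-set means at log2 4.61. Notch3 lies under the dashed line, Jag2 between the lines, and the groups of the other 8 genes lie within 0.33 of each other.

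Notch1 is the receptor that, together with Notch2, is known to keep crypt cells out of the secretory fate. Its brightest probe set measured log2 7.49 and 7.64 in the Cre-positive arrays, against 7.23 and 7.49 in the Cre-negative arrays. The lower Cre-positive and the higher Cre-negative value coincided to 2 decimals, so the groups met. The difference was 0.21 (SE 0.18, 95% interval -0.32 to 0.73, limma adjusted p = 0.644). It ranged from 0.07 to 0.34 with single arrays left out, the lowest without Cre-negative array 1 and the highest without Cre-negative array 2, and was 0.10 by the mean of both probe sets. The second Notch1 probe set, close to the 60th percentile, differed by under 0.01 in size.

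Notch2 measured log2 5.68 and 5.38 in the Cre-positive arrays, against 5.38 and 5.35 in the Cre-negative arrays. Cre-positive array 1 alone stood above the rest, and the groups were separated by under 0.01. The difference was 0.16 (SE 0.15, 95% interval -0.28 to 0.61, limma adjusted p = 0.664), and 0.02 without Cre-positive array 1. The other Notch2 probe set was at floor level everywhere (log2 2.45 to 2.48).

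Notch3, a receptor known mainly from smooth muscle and pericytes around vessels, lay at the bottom of the scale by both of its probe sets. The brighter one measured log2 2.47 and 2.46 in the Cre-positive arrays, against 2.51 and 2.50 in the Cre-negative arrays, a level at which no size or direction is read. Of the mural marker list, Acta2 and Tagln lay at the bottom as well, while Pdgfrb, a pericyte and fibroblast receptor, measured 7.69 and 5.82 against 6.90 and 6.44. Notch4, the remaining receptor of the family and one known from endothelium, was no member of the set. By its brightest probe set it measured 6.03 and 3.81 in the Cre-positive arrays, against 4.52 and 3.86 in the Cre-negative arrays, and its other 2 probe sets lay between 1.79 and 2.84. Its difference of 0.73 (limma adjusted p = 0.723) became -0.38 without Cre-positive array 1, the array that also had the high S100a8 and S100a9 values. Their part in the value was not tested. Dlk1, a Notch ligand relative without the usual receptor-binding domain, was dim (log2 3.32 and 3.16 in the Cre-positive arrays, against 3.36 and 3.43 in the Cre-negative arrays).

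Dll1 and Dll4 are the ligands that secretory cells present to their neighbours in the crypt. Dll1, with a single probe set, measured log2 7.20 and 6.90 in the Cre-positive arrays, against 6.93 and 6.99 in the Cre-negative arrays. The Cre-positive values lay on either side of both Cre-negative values. The difference was 0.09 (SE 0.19, 95% interval -0.45 to 0.63, limma adjusted p = 0.843) and was -0.06 without Cre-positive array 1.

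Dll4 is also a known ligand of endothelial cells, whose markers were at the bottom of the scale here. Its brightest probe set measured log2 4.95 and 5.17 in the Cre-positive arrays, against 5.09 and 5.15 in the Cre-negative arrays, and the groups overlapped. The difference was -0.06 (SE 0.12, 95% interval -0.42 to 0.30, limma adjusted p = 0.838), with 0.05 when Cre-positive array 1 was left out. The dimmer Dll4 probe set measured 3.51 and 4.55 in the Cre-positive arrays, against 4.57 and 4.84 in the Cre-negative arrays. Its groups did not overlap, but Cre-positive array 2 lay just under Cre-negative array 1, and the difference of -0.68 had a 95% interval of -1.93 to 0.58 (limma adjusted p = 0.617 over all probe sets tested). Averaging both probe sets gave -0.37.

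Jag1 and Jag2 are the Jagged ligands. Jag1 had the largest difference of the 9 tested genes by its brightest probe set, which measured log2 8.49 and 7.96 in the Cre-positive arrays, against 8.06 and 7.74 in the Cre-negative arrays. Cre-positive array 1 was highest, and Cre-positive array 2 lay between the Cre-negative values. The difference was 0.33 (SE 0.26, 95% interval -0.44 to 1.09, limma adjusted p = 0.625), and larger differences were found for 22.0% of all genes tested. Leaving out Cre-positive array 1 gave 0.06, and leaving out the other Cre-positive array gave 0.59. The other Jag1 probe sets went slightly the other way, by -0.06 and -0.11, and the mean of all 3 gave 0.05.

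Jag2 was barely above the filter. Its brighter probe set measured log2 3.04 and 3.14 in the Cre-positive arrays, against 3.02 and 2.93 in the Cre-negative arrays, and its dimmer one 2.71 and 2.68 against 2.78 and 2.73. The groups did not overlap in either, and the probe sets pointed in opposite directions, so no size is given. The limma adjusted p of the brighter probe set was 0.524.

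**Figure D2:**
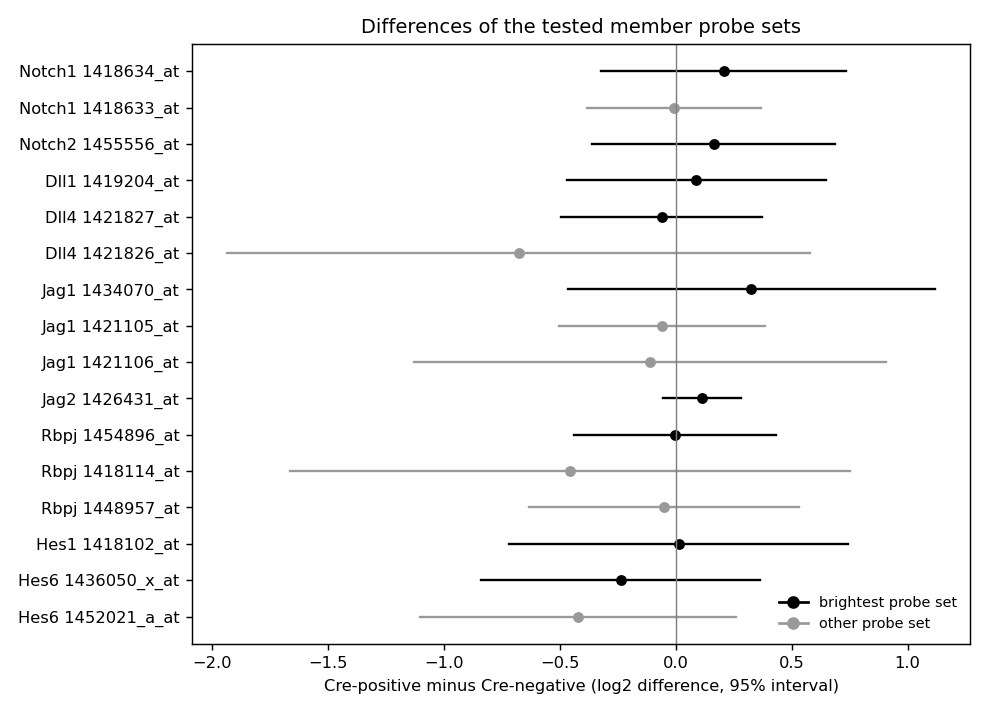
Log2 difference, Cre-positive minus Cre-negative, of the 16 member probe sets above the filter, with 95% intervals from limma fitted over all 22693 probe sets tested (n = 2 arrays a group). Black marks the brightest probe set of a gene and grey the others. All 16 intervals include 0, and the widest are those of the dimmer Dll4 and Rbpj probe sets.

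Rbpj, through which all the receptors act in the nucleus, was the member whose brightest probe set differed least. It measured log2 7.98 and 8.21 in the Cre-positive arrays, against 8.11 and 8.09 in the Cre-negative arrays, with both Cre-negative values between the Cre-positive ones. The difference was -0.0031 (SE 0.15, 95% interval -0.45 to 0.44, limma adjusted p = 0.994). Left-out arrays moved it between -0.12 and 0.11. A dimmer probe set, the one with the wide interval in the plot of differences, measured 5.84 and 6.73 in the Cre-positive arrays, against 6.55 and 6.93 in the Cre-negative arrays, a difference of -0.46, and the third differed by -0.05.

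Hes1, the main effector of Notch in the crypt, has 1 probe set. It measured log2 9.24 and 9.83 in the Cre-positive arrays, against 9.48 and 9.56 in the Cre-negative arrays. The Cre-positive arrays held both the lowest and the highest value, and the Cre-negative arrays lay between them. The difference was 0.01 (SE 0.24, 95% interval -0.69 to 0.71, limma adjusted p = 0.985). It was 0.31 without Cre-positive array 1, -0.28 without Cre-positive array 2 and -0.03 without Cre-negative array 1, so its sign depends on single arrays.

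Hes6 was the member with the largest difference below 0, and both of its probe sets had a lower mean in the Cre-positive arrays. The brighter one measured log2 9.68 and 10.06 in the Cre-positive arrays, against 10.25 and 9.97 in the Cre-negative arrays, with overlapping groups. The difference was -0.24 (SE 0.20, 95% interval -0.82 to 0.34, limma adjusted p = 0.631), and -0.05 without Cre-positive array 1. The dimmer one measured 8.56 and 9.10 against 9.27 and 9.24, a difference of -0.42 (95% interval -1.11 to 0.26, limma adjusted p = 0.605 over all probe sets tested). Here the groups did not overlap, and Cre-positive array 1 lay farthest out. The brighter probe set is of a kind (x in its identifier) that can bind transcripts of related genes.

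Across all 20 member probe sets, 16 were above the filter, 6 with a higher and 10 with a lower mean in the Cre-positive arrays. Limma over the 22693 probe sets tested called 0% at an adjusted p under 0.05, and none of the 16 was under 0.05 unadjusted, against 9.37% of all in either direction and 6.69% lower. The groups did not overlap for 4 of the 16, against 46.9% of all. Of the 5 members with several probe sets above the filter, 2 (Notch1 and Jag1) had probe sets pointing both ways. Cre-positive array 1 gave the lowest value for 4 of the 9 tested members, namely Dll4, Hes1, Hes6 and Rbpj, and the highest for 3, namely Notch2, Dll1 and Jag1. Over all genes tested it gave the lowest value for 46.1%. Cre-positive array 2 was highest for 5 of the 9, against 20.1% of all genes.

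The wider pathway held 64 further genes, of which 59 were matched to a probe set and 48 were above the filter. Of these, 28 had a higher and 20 a lower mean in the Cre-positive arrays, where 38.5% of all genes tested had a higher mean. The median difference of the 48 was 0.03. That median was -0.01 by the mean of all probe sets and 0.11 with the filter at the 60th percentile, so its sign depends on the probe sets used. None passed over all genes in limma, and at an unadjusted p under 0.05 there were 2 higher, against 2.54% of all genes, and 3 lower, against 8.51%. Groups were fully apart for 12 genes higher and 11 lower, against 13.5% and 34.7% of all genes tested.

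Genes that mature and cut the receptor showed no common direction. Of 8 tested, 5 had a higher and 3 a lower mean, beside 38.5% higher of all genes tested, with a median difference of 0.01. Adam10, the protease that makes the first ligand-induced cut, measured log2 11.85 and 11.73 in the Cre-positive arrays, against 11.73 and 11.78 in the Cre-negative arrays, a difference of 0.03 (95% interval -0.24 to 0.30). Adam17, a related protease, differed by 0.21 (9.12 and 9.15 against 8.95 and 8.90, limma adjusted p = 0.532). Its other probe sets differed by 0.05 and 0.06, with overlapping groups. Aph1b, a gamma-secretase subunit, measured 6.56 and 6.17 against 7.12 and 6.74, a difference of -0.56 (limma adjusted p = 0.516), and a second, dimmer probe set differed by -0.76. Ncstn and Aph1a, subunits of the same complex, differed by 0.02 and 0.01. Among 5 genes whose enzymes add sugars to the receptor, Poglut1 differed by -0.41 and Rfng by 0.15, with 2 higher and 3 lower means. For Rfng the mean of both probe sets gave -0.04.

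Genes of ligand endocytosis, receptor sorting and turnover lay higher on average for 10 of 12 genes, against 38.5% of all genes tested. Their median difference was 0.22. At an unadjusted p under 0.05 there was 1 higher, against 2.54% of all genes. It was Dtx3 (log2 4.13 and 3.98 against 3.86 and 3.83, limma adjusted p = 0.436), a dim gene. Dtx3l, of a ubiquitin ligase family named after Deltex, measured 9.87 and 9.75 in the Cre-positive arrays, against 9.28 and 9.57 in the Cre-negative arrays (difference 0.39, limma adjusted p = 0.485). The groups overlapped by the second Dtx3l probe set (9.85 and 7.73 against 8.15 and 8.34). Numb, which holds back Notch in asymmetrically dividing cells, measured 10.13 and 9.93 against 9.77 and 9.78 (difference 0.26, limma adjusted p = 0.517). By a dimmer Numb probe set the groups overlapped (6.20 and 6.86 against 5.78 and 7.09, difference 0.09). Mib1, the ubiquitin ligase that drives ligand endocytosis, differed by 0.11 and its groups overlapped.

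Nuclear partners of RBPJ lay higher on average for 10 of 14 genes, against 38.5% of all genes tested, with a median difference of 0.12. Ep300, the acetyltransferase recruited by the active Notch complex, measured log2 9.66 and 9.41 in the Cre-positive arrays, against 9.05 and 9.03 in the Cre-negative arrays. Both Cre-positive values stood above both Cre-negative ones, and the difference was 0.50 (SE 0.14, unadjusted p = 0.0271, limma adjusted p = 0.385). In limma the unadjusted p was 0.128 or 0.137 without Cre-negative array 1 or 2. Spen, a corepressor that binds RBPJ, differed by 0.39, and Maml1, the coactivator of the Notch complex, by 0.11. Tle3, a corepressor of HES proteins, lay lower in both Cre-positive arrays (8.24 and 8.36 against 8.53 and 8.59, difference -0.26, limma adjusted p = 0.528). Its other 3 probe sets lay lower too, but 1 of them was barely above the filter (log2 2.81 to 2.85), where no direction is read. The leukocyte sums given above were also higher in both Cre-positive arrays, and their part in the medians of this list and of the endocytosis list was not tested.

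**Figure D3:**
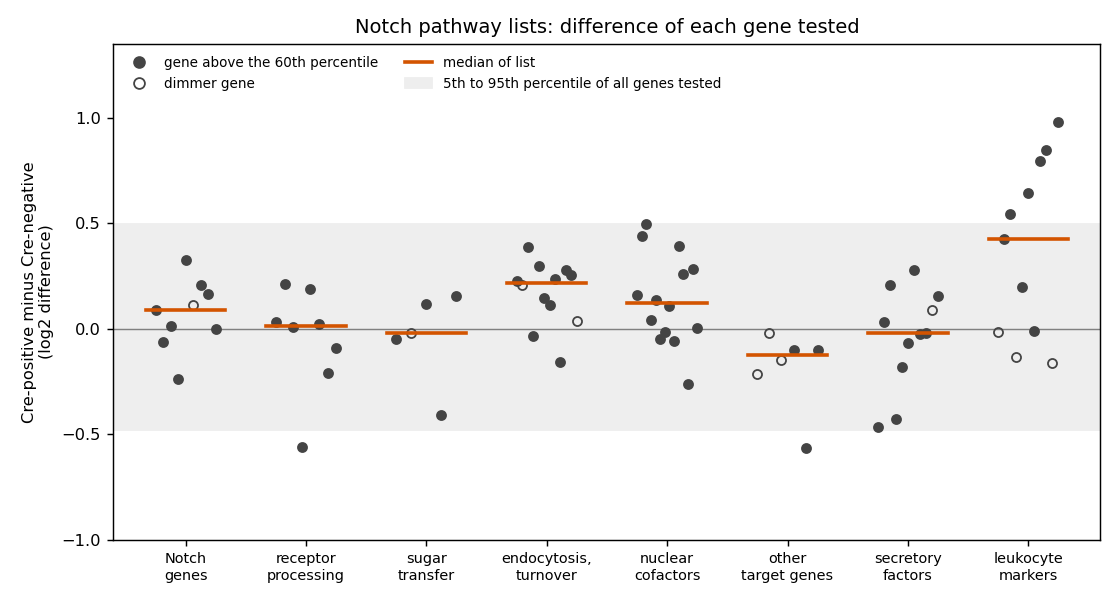
Log2 difference, Cre-positive minus Cre-negative, of each tested gene in the Notch set, in 5 further pathway lists, in secretory lineage factors and in leukocyte markers. Orange bars are list medians, open circles are genes no brighter than the 60th percentile of probe-set means, and the grey band spans the 5th to 95th percentile of all 12660 genes tested. The 9 Notch genes all lie inside the band, with a median of 0.09. The 11 leukocyte markers have a median of 0.42, and 4 of them lie lower. Set against the Cre-negative mean, the leukocyte median is 0.09 on Cre-positive array 1 and 0.39 on Cre-positive array 2.

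Among target genes other than the members, all 6 tested had a lower mean in the Cre-positive arrays, with a median difference of -0.12, while 38.5% of all genes tested had a higher mean. Of the 6, Hes5, Hes7 and Hey2 were no brighter than the 60th percentile. The bright one among those at a small p was Nrarp, a direct target that feeds back to limit Notch, singled out here after its values were seen. Its brightest probe set measured log2 7.76 and 7.96 in the Cre-positive arrays, against 8.51 and 8.33 in the Cre-negative arrays. Both Cre-positive values stood below both Cre-negative ones. The difference was -0.56 (SE 0.16, 95% interval -1.03 to -0.10, unadjusted p = 0.0294, limma adjusted p = 0.397), and it ranged from -0.46 to -0.66 with single arrays left out. The unadjusted p was 0.0561 with the replicate block, 0.0630 by the mean of both probe sets, and 0.0701, 0.160 and 0.0901 in limma without Cre-positive array 1, Cre-negative array 1 or Cre-negative array 2, so this unadjusted call is lost there. The second Nrarp probe set also lay lower in both, at 5.77 and 6.72 against 6.89 and 7.01, with Cre-positive array 1 farthest out. Over genes above the 60th percentile, 2.52% were lower and 2.86% higher at this unadjusted threshold, 5.38% in all, and the groups did not overlap for 41.3%.

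Hes5 and Hey2, targets better known from brain and vessels, were at an unadjusted p under 0.05 too, but were dim throughout (log2 3.23 to 3.48 for Hes5 and 3.28 to 3.44 for Hey2), so no size is given. Of the 1077 genes lower at that threshold, 832 were at or below the 60th percentile. Hey1 and Heyl lay at the bottom in all arrays. Sox9, a progenitor factor, differed by -0.10 and Myc by -0.10, both with overlapping groups.

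Genes downstream of the Notch decision did not move together. Of 11 secretory lineage factors tested, 5 had a higher and 6 a lower mean, beside 38.5% higher of all genes tested. Their median difference was -0.02, and none was under 0.05 unadjusted, against 11.1% of all genes. Atoh1, whose window is printed above, measured log2 9.86 and 10.78 in the Cre-positive arrays, against 10.56 and 11.02 in the Cre-negative arrays. The groups overlapped, Cre-positive array 1 was lowest, and the difference of -0.47 (95% interval -1.62 to 0.68, limma adjusted p = 0.634) was -0.0050 without that array. Cre-positive array 1 was thus the lowest array for Hes1 and for Atoh1. Klf4, a factor of goblet and surface cells, measured 13.82 and 13.78 against 13.59 and 13.45 (difference 0.28, limma adjusted p = 0.465), while its other probe set differed by 0.0049. Gfi1 differed by -0.18 and Spdef by 0.16.

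**Figure D4:**
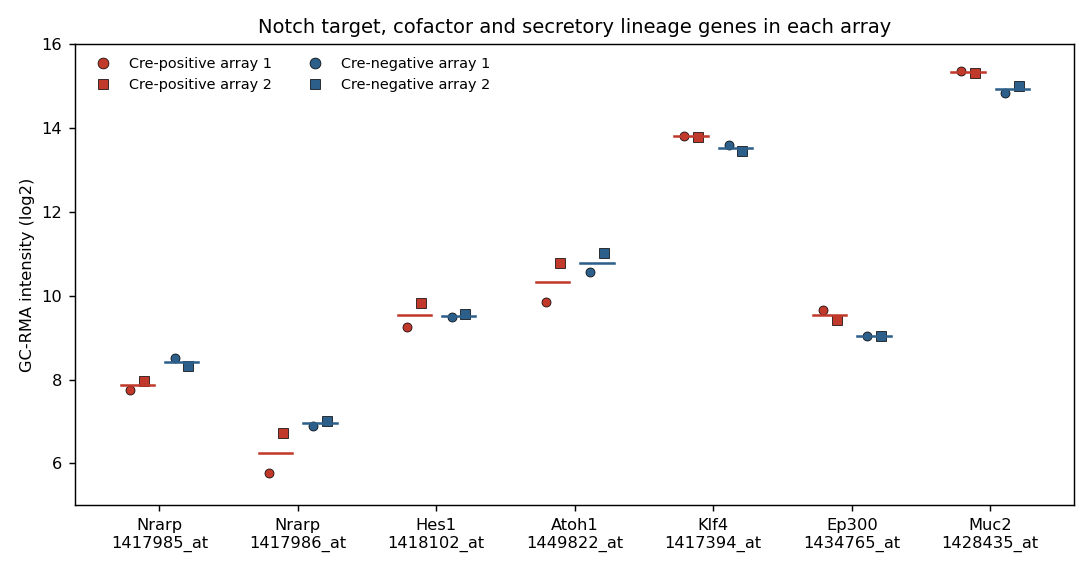
GC-RMA intensity (log2) in each array for both Nrarp probe sets, Hes1, Atoh1, Klf4, Ep300 and Muc2, Cre-positive on the left of each pair and Cre-negative on the right. Bars are group means (n = 2). The groups are apart for Nrarp, Klf4, Ep300 and Muc2 and overlap for Hes1 and Atoh1.

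Marker lists of goblet, enteroendocrine, crypt stem and tuft cells had medians between -0.18 and 0.10, with larger differences in single genes. Of all genes tested, 38.5% had a higher mean. Goblet cell markers had a higher mean in 8 of 12 (median 0.10), among them Fcgbp, a mucus protein gene (log2 13.50 and 13.51 against 13.04 and 12.83, difference 0.56, limma adjusted p = 0.282), and Muc2, the gel-forming mucin (15.35 and 15.32 against 14.84 and 14.99, difference 0.42, limma adjusted p = 0.358). A lower mean was found for the other 4, Retnlb (difference -0.39), Spink4 (-0.21), Ccl9 (-0.14) and Tff3 (-0.10, groups apart). Enteroendocrine markers had a lower mean in 8 of 13 (median -0.18), with Tac1, a neuropeptide gene, lower in both Cre-positive arrays (difference -1.54, limma adjusted p = 0.244) and Insl5 at -0.58. For Tac1 the mean of all probe sets gave a smaller difference, -0.80. The other 5 enteroendocrine markers had a higher mean, among them Chga (10.29 and 10.18 against 9.47 and 9.95, difference 0.53, limma adjusted p = 0.486) and Chgb (difference 0.35). Crypt stem markers had a lower mean in 8 of 12 (median -0.15), but set against the Cre-negative mean the list had a median of -0.22 on the first Cre-positive array and 0.05 on the second, so the lower median rests on 1 array. Smoc2 differed by -0.94, and Lgr5 measured 2.88 and 4.36 in the Cre-positive arrays, against 4.38 and 4.41 in the Cre-negative arrays. Cd44, a crypt and leukocyte surface protein, measured 10.89 and 10.99 against 10.66 and 10.38 (limma adjusted p = 0.432). Its difference was 0.42, and 0.15 by the mean of all its probe sets. Ephb3, a crypt receptor, measured 6.40 and 6.52 against 6.86 and 6.69. Tuft markers had 4 higher and 2 lower means, with Rgs13 at -0.30 and Alox5ap at 0.28. Of the fibroblast list, Vim differed by 0.66, and Thy1, which lymphocytes also express, was dim. None of these markers passed over all genes in limma.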

How the data were processed

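RNA from colon epithelium was hybridised to 4 arrays as biotinylated cRNA, per the labels' protocols. The deposited values were probe-set intensities after GC-RMA normalization (GCRMA per the submitters' processing notes, Arrayassist per the file headers), on the linear scale, for 45101 probe sets. The authors' second table holds the same intensities rounded to whole numbers as a score, log2 values relative to the Cre-negative mean, an absolute fold (ratio) and a p-value, per the file headers. Its rounded values differed from the first by at most 0.5.

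A given table named 1 gene for 34958 probe sets, 932 had several and were left unnamed, and 203 of 214 listed symbols were matched. For each gene the probe set with the highest mean was kept, and genes at or below the 40th percentile (log2 2.81) were left out. log2 intensities were fitted with limma 3.58.1 in R 4.3.3 (intensity trend, two-sided, Benjamini-Hochberg over 12660 genes, threshold 0.05), and likewise over 22693 probe sets. SE is the moderated standard error. The code of the fit was also run on data simulated from its own variance model. Such data cannot show how well that model suits these 4 arrays. Named genes were the members by every probe set, Stat3, and the 2 of smallest unadjusted p in each list. Genes outside this rule, such as Nrarp, were picked with their values in view. The members and lists were chosen with earlier results of these data known. The labels number the arrays as biological replicates. Their numbers are not stated to mark a shared litter or day, so no pairing was assumed. Alternatives covered the filter, probe-set choice, normalization, offset, variance prior, replicate block, the second table (its log2 columns were added after its rounded intensities had been run) and each array left out.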

Additional observations from a re-analysis of the deposited data

How the results depend on the processing

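No member passed an adjusted p under 0.05 in limma under any of the 14 alternatives run (0 members in each, and 0 member probe sets in the 13 that keep probe sets apart). Of 125 member differences recomputed, 7 changed sign, 6 of them with an array left out. With single arrays left out, differences ranged from -0.063 to 0.239 for Dll1, -0.172 to 0.050 for Dll4, -0.281 to 0.306 for Hes1, -0.120 to 0.114 for Rbpj, -0.384 to 1.84 for Notch4, -0.286 to 4.35 for S100a8 and -0.054 to 0.033 for Eng. The sign changed without Cre-positive array 1 for Dll1, Dll4, Rbpj, Notch4 and S100a8, without Cre-positive array 2 for Hes1, and without Cre-negative array 1 for Hes1 (-0.028), Rbpj (0.0078) and Eng. Quantile normalization gave 0.028 for Rbpj and 0.0081 for Eng, and the mean of all probe sets gave -0.041 for Rfng. The cause was not tested. Genes higher at an unadjusted p under 0.05 ranged from 114 to 1180 with single arrays left out, at 545 and 1180 on leaving out Cre-positive array 1 or 2 and at 155 and 114 on leaving out Cre-negative array 1 or 2, and genes lower from 844 to 2188, the highest without Cre-positive array 2. Genes lower numbered 5319 without the filter, where 1 member, Notch3 at the bottom of the scale, was under 0.05 unadjusted. They numbered 259 with the filter at the 60th percentile, 610 with arrays centred on their medians and 583 without the intensity trend. From the second table's rounded intensities 552 genes passed after adjustment, 542 of them at or below the 60th percentile, where rounding makes replicate values identical, and no member was among them. Reading that table through its log2 columns instead, a setting chosen after seeing the data because of those calls, gave 0. With the replicate block 0 genes passed, with 447 higher and 900 lower unadjusted. Deviations from the group means in Cre-positive array 1 and Cre-negative array 1 correlated at 0.42 over the genes tested. With 2 arrays a group the deviations of the arrays numbered 2 mirror these, and the value does not establish a pairing. Jag2 was not tested at the 60th percentile. Signal near the bottom of the scale limits what can be said of Notch3, Jag2, Hes5 and Hey2.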
